A study of Mus musculus with 21 samples.

Results

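Mitosis and G2/M genes were followed through the stepwise conversion of mouse embryonic stem cells (ESCs) into motor neurons (MNs). The set held 40 named genes, matched by symbol to 40 Ensembl identifiers among the 55400 genes of the count table. The RNA-seq series held 21 libraries of poly-A RNA in 7 groups of 3. All groups were WT cultures of C57BL/6 ESCs, kept on mitomycin-C-treated embryonic fibroblasts before differentiation. They were grown as embryoid bodies with 1 µM retinoic acid and 0.5 µM of the Sonic hedgehog agonist SAG up to day 5. The Notch pathway inhibitor DAPT, at 5 µM, was added from day 4 to direct cells towards the hypaxial motor column. Per the study's methods, the medium from day 5 held DAPT but not retinoic acid or SAG. Stage and these changes of medium cannot be told apart. Untreated cultures were collected at day 4 (D4, MN progenitors), 8 hours later (D4H8, proneural cells), at day 5 (D5, newborn MNs) and at day 6 (D6, maturing MNs). D4H8_GSKJ4, D5_GSKJ4 and D6_GSKJ4 had received GSKJ4, an inhibitor of the H3K27 demethylase Kdm6b, for 1 day before collection, at a dose the labels do not give. The cultures were not sorted, and the study describes its replicates at each stage as biologically independent.

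A cell enters mitosis when cyclin B bound to Cdk1 becomes active, and it leaves when the anaphase-promoting complex (APC/C) destroys cyclin B. Most genes for this machinery are transcribed in a wave in G2 and mitosis, driven by B-Myb, the MuvB complex and Foxm1, and are shut off by the DREAM complex when a cell leaves the cycle. In the embryonic spinal cord MN progenitors divide, whereas MNs are postmitotic.

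The start sites show what many of these genes share in sequence. RefSeq windows (GRCm38.p6) covering 250 bases before and 50 after a start were matched for 33 of the 40 genes, as 35 windows. *Ccna2*, *Incenp*, *Tpx2*, *Cdc25c*, *Foxm1*, *Kif20a* and *Aurkb* had no window in the table used. The 150 bases before the start follow for 7 genes, in the gene's own direction. *Cdk1*, *Ccnb1*, *Ccnb2*, *Cdc20* and *Aurka* are shown as the mitotic kinases, cyclins and APC/C activator the results below turn on, *Racgap1* as the gene that fell least from D4 to D6, and *Knstrn* as a window with none of the letters put in capitals. Capitals mark CCAAT, the box bound by the factor NF-Y, and TTTGAA or TTCGAA, the letters of the cell cycle genes homology region, on either strand (ATTGG and TTCAAA are the reverse complements, and TTCGAA reads the same on both).
Cdk1, chr10:69352913-69353062, - strand: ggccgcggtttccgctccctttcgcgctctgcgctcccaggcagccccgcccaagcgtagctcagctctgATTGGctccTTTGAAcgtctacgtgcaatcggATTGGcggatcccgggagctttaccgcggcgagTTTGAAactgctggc
Ccnb1, chr13:100786487-100786636, - strand: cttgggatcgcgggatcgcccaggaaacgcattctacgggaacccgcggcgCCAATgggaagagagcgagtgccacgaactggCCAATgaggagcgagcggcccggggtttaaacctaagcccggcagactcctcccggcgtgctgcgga
Ccnb2, chr9:70421555-70421704, - strand: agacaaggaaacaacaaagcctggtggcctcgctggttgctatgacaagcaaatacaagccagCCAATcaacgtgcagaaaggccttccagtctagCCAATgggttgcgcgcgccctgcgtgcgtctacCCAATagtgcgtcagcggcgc
Cdc20, chr4:118437344-118437493, - strand: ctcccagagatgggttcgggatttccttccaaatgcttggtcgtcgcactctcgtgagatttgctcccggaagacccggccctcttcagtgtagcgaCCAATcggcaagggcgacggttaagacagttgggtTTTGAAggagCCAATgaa
Aurka, chr2:172370571-172370720, - strand: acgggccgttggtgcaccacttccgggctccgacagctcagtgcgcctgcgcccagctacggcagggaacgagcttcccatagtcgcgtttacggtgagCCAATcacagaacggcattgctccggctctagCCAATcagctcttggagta
Racgap1, chr15:99651657-99651806, - strand: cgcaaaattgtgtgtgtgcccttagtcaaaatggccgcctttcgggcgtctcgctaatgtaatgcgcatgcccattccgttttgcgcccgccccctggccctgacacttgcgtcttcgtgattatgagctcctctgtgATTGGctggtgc
Knstrn, chr2:118813853-118814002, + strand: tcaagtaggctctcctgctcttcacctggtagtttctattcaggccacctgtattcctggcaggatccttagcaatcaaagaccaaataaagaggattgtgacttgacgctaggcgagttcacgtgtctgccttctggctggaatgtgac

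CCAAT was present in 27 of the 35 windows of 300 bases (77.1%, 95% Wilson interval 61.0 to 87.9%), against 37.4% of all 32851 windows. In all 27 the letters also fell within the 150 bases before the start, where 24.5% of all windows held them. TTTGAA was present in 26 of 35 windows (74.3%, 57.9 to 85.8%) against 17.9% of all windows, and TTCGAA in 3 (8.57%) against 1.56%. CCAAT together with TTTGAA or TTCGAA was found in 24 of 35 windows (68.6%) and in 7.52% of all windows. TTTGAA often lay just past the start: within the 150 bases before it, 11 of 35 windows (31.4%) held the letters, against 9.07% of all windows. The letters TTNNCGC, searched with each N as C or G, which E2F factors can bind, stood in 6 of 35 windows (17.1%, 8.10 to 32.7%) and in 9.57% of all. In *Cdk1*, *Ccnb1* and *Aurka* CCAAT occurred as a pair 32 bases apart, and in *Ccnb2* 3 times at steps of 33 bases. A pair 30 to 35 bases apart, a range set after these windows had been read, was found in 8 of 35 windows (22.9%) and in 1.64% of all. Windows with neither the CCAAT box nor the homology region belonged to *Nuf2*, *Knstrn*, *Nusap1*, *Mad2l1* and *Birc5*. A match is only a match of letters, and no binding was measured in these libraries.

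Total counts per library ranged from 14982115 to 34383842, with a median of 16238435. The lowest count of any of the 40 genes in any library was 47 (*Cdc25c*), so none was near the detection limit and all 40 passed the filter on low counts in every comparison. Markers of the labelled cell type rose through the stages: the summed FPKM (fragment counts scaled to exon length and library size) of 7 MN markers was 7.89 to 19.7 at D4, 264 to 309 at D5 and 437 to 502 at D6. All 6 pluripotency markers were still present in every untreated group. Their summed FPKM was 122 to 286 at D4 and 11.9 to 92.3 at D6, with *Pou5f1* at 1.53, 12.5 and 13.96 FPKM in D6 replicates 1, 2 and 3. Summed FPKM of 8 feeder fibroblast markers ranged from 4.04 to 27.9 over the 21 libraries. Replicate 1 of both D6 arms stood apart from replicates 2 and 3, and D4H8_GSKJ4 replicate 2 stood apart from the other treated D4H8 libraries. Counts of called genes among the 40 that rest on them are given with and without them. Tests of the other gene lists were run only with them.

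The 40 genes moved together over the 21 libraries. Each gene's log2 CPM (counts scaled to library size) was correlated with the mean of the other 39 at Pearson's r between 0.952 (*Racgap1*) and 0.997, a description in which the points share their libraries and include large stage differences. With the group means removed r still ranged from 0.808 (*Ube2c*) to 0.985. Replicate 1 of the untreated and treated D6 groups deviated most, with medians of -1.36 and -1.53 against the mean of both other replicates. This r was not computed without these libraries or for other genes. Summed FPKM of the 40 genes was 1669 ± 80.9 at D4, 1672 ± 38.6 at D4H8, 744 ± 158 at D5 and 265 ± 118 at D6 (SD, n = 3). D5 and D6 thus held 44.6% ± 9.47 and 15.9% ± 7.09 of the D4 mean. Under GSKJ4 the sums were 1269 ± 156 at D4H8, 685 ± 151 at D5 and 272 ± 131 at D6. In summed CPM the treated D4H8 libraries held 5476, 8216 and 6650, against 8295, 8597 and 8599 untreated. By that measure treated replicate 2 was close to the untreated libraries. In bulk cultures fewer dividing cells and less RNA per dividing cell cannot be told apart.

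**Figure D1:**
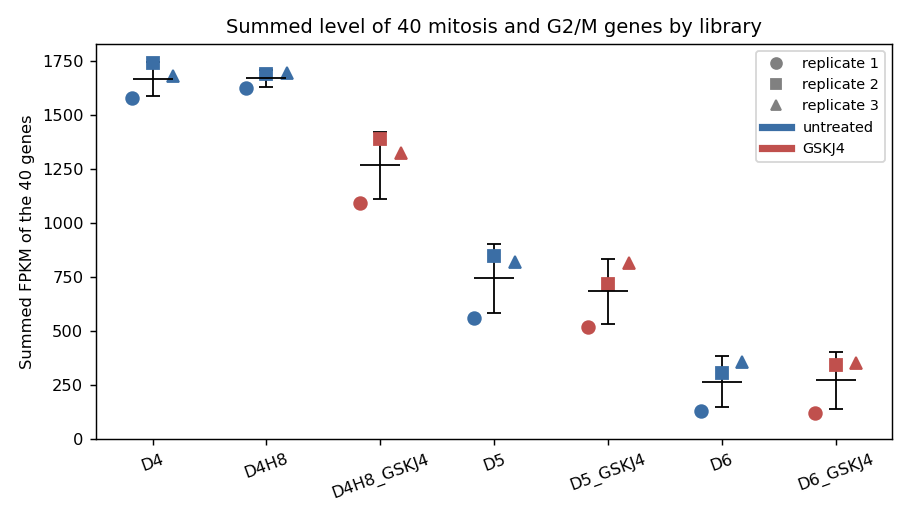
Summed FPKM of the 40 mitosis and G2/M genes (y axis, linear) in each of 21 libraries, by group; symbols mark the replicate number, blue is untreated and red GSKJ4, and bars are the mean ± SD of 3 libraries. The untreated means were 1669, 1672, 744 and 265 from D4 to D6, and replicate 1 was lowest in both arms at D5 and D6.

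Between D4 and D4H8, no change was called among the mitotic transcripts. None of the 40 genes passed edgeR's quasi-likelihood test at a Benjamini-Hochberg adjusted p under 0.05 in either direction, and none had an unadjusted p under 0.05; DESeq2 also called none. Over all 17519 genes tested 4.06% were called higher and 0.320% lower. The median log2 fold change was -0.07 over the 40 genes and -0.02 over all genes tested. The range ran from -0.34 for *Mad2l1*, a spindle checkpoint protein, to 0.32 for *Racgap1*, a GTPase-activating protein of the cytokinetic furrow. By CPM, 3 genes were higher in each D4H8 library than in each D4 library (*Ube2c*, *Cenpa* and *Racgap1*) and 5 lower (*Cdk1*, *Bub1*, *Mad2l1*, *Nuf2* and *Hmmr*), separations seen in 15.9% and 8.67% of genes tested. *Racgap1* stood at 16.7, 20.1 and 22.9 FPKM in the D4 libraries and 24.4, 24.8 and 27.9 FPKM in the D4H8 libraries. Its adjusted p was 0.312.

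From D4H8 to D5 all 40 genes fell. Of all genes tested 10.5% were called lower. The median log2 fold change of the 40 genes was -1.18, with a range from -1.44 (*Plk1*) to -0.63 (*Racgap1*), and the median of all genes tested was 0.01. The largest adjusted p among the 40 was 0.0466 (*Spc25*), and all 40 were lower in each D5 library than in each D4H8 library, a separation seen in 19.0% of genes tested in this direction. Without D5 replicate 1, 34 of 40 were called, and 1273 of 18106 genes tested were called lower.

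From D5 to D6 all 40 genes fell again, by a median of 1.42 on the log2 scale (adjusted p between 5.83e-05 and 0.0175), with 15.1% of all genes tested called lower and a median of -0.02 over all genes. The steepest fall was that of *Knstrn*, a spindle and kinetochore protein, at -1.80 ± 0.23 (log2, SE), and the shallowest that of *Incenp* at -0.90 ± 0.21. In 39 of 40 genes the D5 and D6 libraries did not overlap, against 26.9% of genes tested. Without D6 replicate 1, 39 of 40 were called (all but *Plk1*), the median was -1.11 and 9.03% of all genes tested were called lower.

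Over the whole course, D6 against D4, all 40 genes were lower, with a median log2 fold change of -2.69 and adjusted p of at most 1.65e-05, and without overlap between the groups (35.8% of genes tested). In this comparison 31.0% of all genes tested were called lower, and their median over all genes was -0.04. Without D6 replicate 1 all 40 were still called, with a median of -2.37, and 26.3% of all genes tested were called lower. The next paragraphs give the genes by role.

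Among the 9 genes of entry into mitosis, log2 fold changes from D4 to D6 lay between -2.79 and -2.22. *Ccnb1*, the cyclin B1 that activates Cdk1, had the highest mean FPKM of this group. It stood at 91.4, 111 and 99.04 FPKM in the D4 libraries, 84.1, 97.5 and 91.9 at D4H8, 29.8, 48.5 and 47.3 at D5 and 5.88, 16.9 and 19.5 at D6. D4 and D4H8 overlapped, every D5 library was below both, every D6 library was below D5, and D6 replicate 1 was the lowest. The D6 to D4 log2 fold change was -2.79 ± 0.31 (adjusted p 3.21e-06). *Cdk1*, the mitotic kinase itself, stood at 39.5, 45.8 and 40.02 FPKM at D4, 35.99, 37.97 and 36.1 at D4H8, 10.7, 19.4 and 17.9 at D5 and 2.74, 7.66 and 8.22 at D6. Its D4H8 libraries lay just below its D4 libraries without overlap (adjusted p 0.71), and the large step came between D4H8 and D5 (-1.20 ± 0.29, adjusted p 0.00616). *Foxm1*, the factor that drives many genes of this set, went from 19.8 ± 4.08 FPKM (SD, n = 3) at D4 to 3.70 ± 1.58 at D6.

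The 5 genes of the Aurora kinases and the chromosomal passenger complex ran from -2.97 (*Birc5*, survivin) to -2.07 (*Incenp*, the scaffold of the complex). *Tpx2*, which activates Aurora A on spindle microtubules, was the most abundant. It stood at 76.1, 83.2 and 70.6 FPKM at D4, 76.4, 81.5 and 78.1 at D4H8, 28.1, 39.1 and 38.6 at D5 and 5.30, 11.5 and 14.3 at D6, with D5 and D6 each clear of the stage before. *Aurka*, Aurora A, stood at 55.4, 64.2 and 54.9 FPKM at D4 and 5.01, 10.8 and 10.3 at D6, a change of -2.69 ± 0.21 with the smallest adjusted p of the 40 genes (9.91e-08).

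The 6 genes of the spindle checkpoint and the APC/C ran from -2.83 (*Bub1b*, BubR1) to -2.34 (*Ube2c*, the E2 enzyme of the APC/C). *Cdc20*, the APC/C activator held back by the checkpoint, had 90.97, 110.3 and 124 FPKM at D4, 110.0, 126 and 129 at D4H8, 52.2, 56.6 and 61.9 at D5 and 8.95, 23.6 and 27.3 at D6. Its D4 and D4H8 libraries overlapped, and the D6 libraries held 19.96 ± 9.70 FPKM against 109 ± 16.8 at D4 (SD, n = 3).

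The 7 centromere and kinetochore genes fell by a median of 2.75 on the log2 scale, from -3.00 (*Nuf2*, of the Ndc80 complex) to -2.63 (*Spc25*, of the same complex). *Cenpa*, the centromeric histone H3 variant, had 27.98, 33.7 and 32.5 FPKM at D4, 36.8, 34.02 and 34.6 at D4H8, 12.4, 17.4 and 16.7 at D5 and 2.69, 5.31 and 6.11 at D6. The D4H8 libraries were all above the D4 libraries (log2 fold change 0.12 ± 0.20, adjusted p 0.812), and the fall to D5 and to D6 was without overlap.

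The 5 spindle motor and microtubule-binding genes included the steepest fall of the whole set. *Hmmr*, a microtubule-associated protein of the spindle poles, stood at 33.5, 29.3 and 29.01 FPKM at D4, 26.97, 23.7 and 26.3 at D4H8, 7.49, 13.9 and 11.7 at D5 and 1.52, 3.42 and 4.44 at D6, a log2 fold change of -3.25 ± 0.30 (adjusted p 4.68e-07). *Kif11*, the Eg5 motor that pushes spindle poles apart, was the most abundant, at 40.1, 41.1 and 38.7 FPKM at D4, 34.1, 37.7 and 39.5 at D4H8, 11.9, 18.7 and 17.02 at D5 and 2.28, 6.53 and 7.21 at D6. Both genes fell at each of the last 2 steps, and their D6 means were 10.2% (*Hmmr*) and 13.4% (*Kif11*) of D4.

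The 6 genes of the central spindle and cytokinesis had the smallest median fall, 2.44 on the log2 scale. *Kif20a*, a kinesin of the central spindle, was the most abundant, at 47.4, 54.95 and 49.1 FPKM at D4, 48.2, 52.05 and 49.2 at D4H8, 16.6, 24.1 and 23.3 at D5 and 4.18, 9.11 and 14.2 at D6. *Racgap1* fell least of the 40, from 16.7, 20.1 and 22.9 FPKM at D4 to 14.2, 17.5 and 18.2 at D5 and 5.79, 7.07 and 9.87 at D6 (D6 to D4 -1.33 ± 0.16, adjusted p 5.28e-06). Its D6 mean was 38.1% of its D4 mean, against a median of 14.96% over the 40 genes, and its D5 and D4 libraries overlapped.

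Of the chromosome structure genes, *Top2a*, DNA topoisomerase II alpha, had the highest mean FPKM of all 40. It stood at 140.2, 155 and 132 FPKM at D4, 127, 139 and 132 at D4H8, 51.8, 67.6 and 60.3 at D5 and 8.64, 22.1 and 26.7 at D6. *Mki67*, the source of the Ki-67 proliferation antigen, went from 65.7 ± 1.03 FPKM at D4 to 9.70 ± 3.96 at D6 (SD, n = 3). Both dropped at D5 and again at D6 without overlap between stages.

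**Figure D2:**
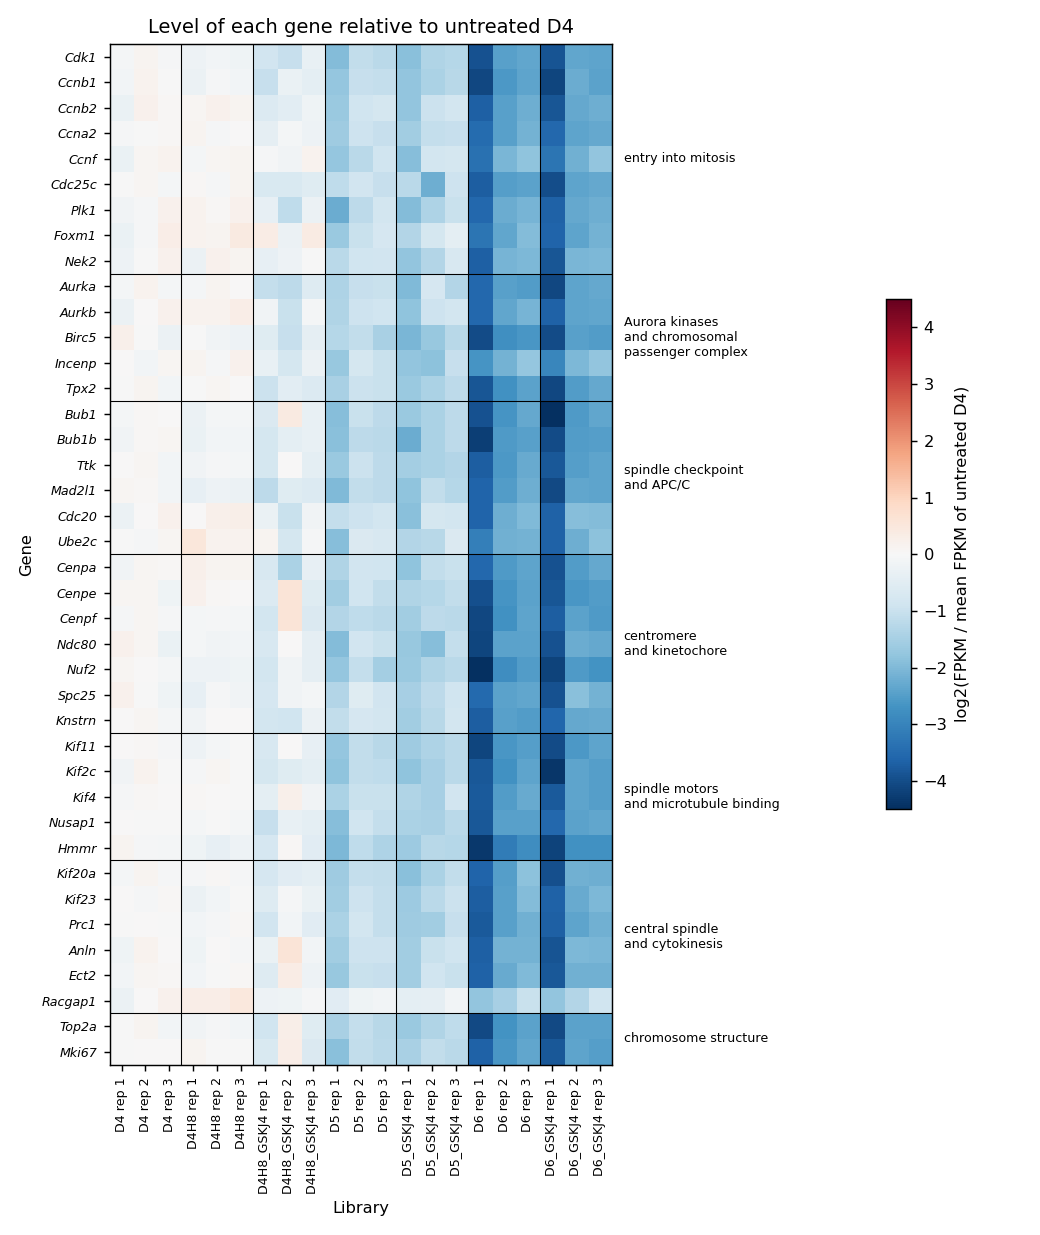
Level of each of the 40 genes (rows, by role) in each of 21 libraries (columns, by group and replicate), as log2 of FPKM over the gene's mean FPKM in untreated D4; blue is below and red above D4. All rows darken at D5 and D6, the D6 replicate 1 columns of both arms are darkest, and *Racgap1* stays palest.

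Reads of 7 of these genes could be shared with a neighbour. *Kif20a* (29.3% of its exonic bases), *Kif4* (15.1%), *Ccna2* (12.5%), *Prc1* (11.1%), *Nusap1* (4.24%), *Cdc20* (2.84%) and *Knstrn* (2.38%) overlap exons of an expressed gene on the opposite strand, and the strand setting of the counting is not given in the sources used here. *Ccnb1*, *Ccnb2* and *Kif4* have an annotated pseudogene of their own name, so their values are less certain as well.

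Other cell cycle genes were read from lists drawn up alongside the 40. From D4 to D6, 31.0% of all genes tested were called lower and 32.9% higher. Of 60 further mitosis genes, 58 fell from D4 to D6, 1 rose and 1 passed in neither direction (median -2.48). The riser was *Zwint*, a kinetochore zw10 interactor, at 59.1, 57.5 and 46.5 FPKM at D4 and 89.5, 96.2 and 93.1 at D6 (log2 fold change 0.83, adjusted p 2.57e-04). *Fzr1*, which encodes the APC/C activator Cdh1 of late mitosis and G1, had 17.6, 19.5 and 27.4 FPKM at D4 and 23.8, 26.1 and 25.2 at D6 (0.30, adjusted p 0.0514), and it rose between D5 and D6 (0.48, adjusted p 0.00871). From D4 to D4H8 *Cdc25b*, an activating phosphatase of Cdk1, was the single one of the 60 to rise (1.04, adjusted p 0.00462), and it fell at both later steps. All 35 DNA replication and G1/S genes fell from D4 to D6 (median -2.31). Of 19 MuvB, B-Myb and E2F regulators, 14 fell, among them *Mybl2* (B-Myb, -1.84, adjusted p 0.00129) and *E2f1* (-1.78, adjusted p 2.82e-06). The 2 that rose were *Rb1* (1.47, adjusted p 1.28e-06) and *Rbl2* (p130, 1.28, adjusted p 1.19e-04), pocket proteins that hold E2F targets off. *Rbl1*, the other pocket protein of this list, was among the 14 that fell. Of 12 D cyclins, partner kinases and CDK inhibitors 7 fell and 4 rose, the risers being *Cdkn1a*, *Cdkn1b*, *Cdkn1c* and *Cdkn2d*, all CDK inhibitors, a share of risers close to that over all genes. The CDK inhibitor genes did not all rise: *Cdkn2a* and *Cdkn2c* were among the 7 that fell, and *Cdkn2b* passed in neither direction. *Cdkn1c* (p57) rose most, by 2.90 (adjusted p 1.13e-08).

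The replicates at D5 and D6 did not hold equal amounts of these transcripts. Summed FPKM of the 40 genes was 562, 848 and 822 in D5 replicates 1, 2 and 3, and 520, 720 and 816 in D5_GSKJ4. At D6 it was 131, 305 and 358 untreated and 120.3, 341 and 354 under GSKJ4. Replicate 1 was the lowest in every one of these groups. In D6 replicate 1 all 40 genes were below both other replicates (51.4% of 16600 genes with a mean of at least 10 counts were), with a median of -1.36 on the log2 scale against their mean. In D6_GSKJ4 replicate 1 all 40 were again below both (49.2% of those genes), with a median of -1.53. At D4 and D4H8 the corresponding medians of replicate 1 were -0.06 and -0.08. The 6 pluripotency markers, in sum, were also lowest in replicate 1 of these groups. Their summed FPKM was 11.9, 92.3 and 82.6 in D6 replicates 1, 2 and 3 and 14.1, 101.8 and 80.2 in D6_GSKJ4, and 54.6, 139 and 113 at D5 and 37.5, 151 and 113 in D5_GSKJ4. All 6 markers were lowest in replicate 1 of both D6 arms, and none was at 0. At D4 and D4H8 replicate 1 was also lowest in these markers (122, 286 and 219 and 55.8, 237 and 150.5), while the 40 genes differed little there. Summed FPKM of 6 pan-neuronal markers was 2185, 1949 and 1874 at D6 and 2267, 2012 and 1870.3 in D6_GSKJ4, highest in replicate 1. That of 8 feeder fibroblast markers was 12.4, 20.8 and 27.9 at D6 and 9.95, 16.6 and 25.6 in D6_GSKJ4, lowest in replicate 1. At D5 it was 16.55, 10.4 and 12.7. Neural progenitor markers summed to 353, 286 and 352 at D6, though their mean log2 CPM was lowest in replicate 1 (4.29, 4.87 and 4.97). The part of these cell types in the lower mitotic level of replicate 1 was not tested.

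**Figure D3:**
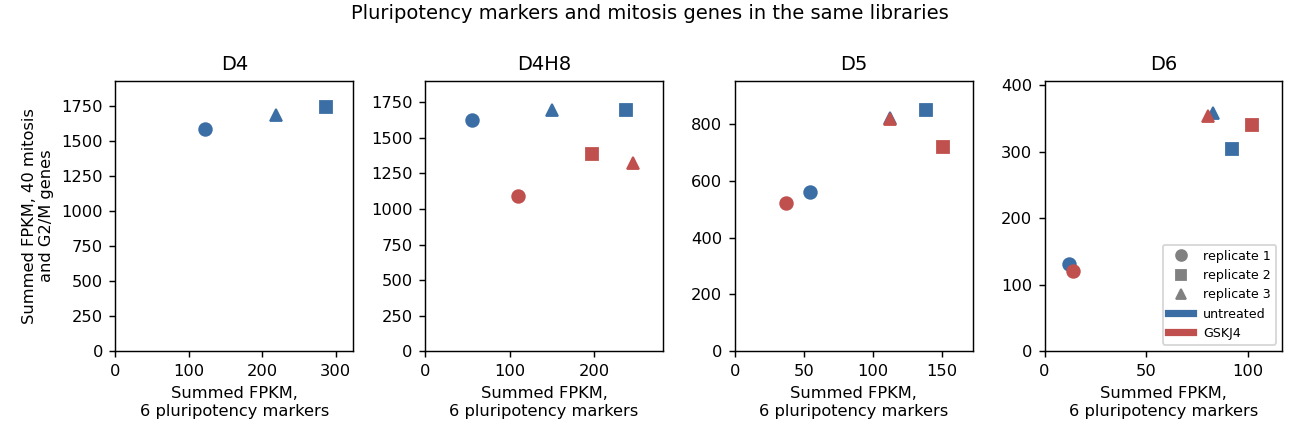
Summed FPKM of the 40 mitosis and G2/M genes (y axis) against summed FPKM of 6 pluripotency markers (x axis) in each library, 1 panel per stage; symbols mark the replicate number, blue is untreated and red GSKJ4. At D6 replicate 1 of both arms sits alone at 131 and 120.3 on the y axis, below 305 to 358 in the other 4 libraries.

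GSKJ4 treatment was compared at each stage with untreated cultures of that stage. At D4H8, 38 of 40 genes had a log2 fold change below 0, with a median of -0.40 against 0.02 over all 16269 genes tested. Only *Aurka* and *Cenpa* were called lower (2 of 40), against 1.85% of all genes tested, and none higher, against 2.11%. Of the 40, 18 had an unadjusted p under 0.05, against 11.0% of all genes in this direction. In 22 of 40 genes the 3 treated libraries were below all 3 untreated ones, against 14.3% of genes tested. *Aurka* stood at 55.1, 63.2 and 58.8 FPKM in the untreated and 27.6, 25.6 and 38.8 in the treated libraries (-0.99 ± 0.18, adjusted p 0.0262). *Cenpa* stood at 36.8, 34.02 and 34.6 FPKM untreated and 18.9, 11.7 and 24.3 treated (-1.0 ± 0.22, adjusted p 0.0444). Treated libraries of both genes were clear of the untreated ones.

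These 2 calls rested on a narrow base. Leaving out any untreated D4H8 library gave 0 calls, leaving out D4H8_GSKJ4 replicate 1 gave 1, and leaving out D4H8_GSKJ4 replicate 2 gave 20 of 40, with a median of -0.52 and 4.48% of all genes called lower. Without untreated replicate 1, 2 or 3 only 41, 47 and 44 of all genes were called lower. Without D4H8_GSKJ4 replicate 1 it was 348 of 16744. DESeq2 called 10 of 40 lower, against 2.69% of the genes it tested. Other members had values such as *Cdk1*, 22.9, 20.2 and 32.9 FPKM in the treated libraries against 35.99, 37.97 and 36.1 untreated (-0.58 ± 0.19, adjusted p 0.1), with no overlap. *Tpx2* had 39.1, 54.8 and 49.9 FPKM treated against 76.4, 81.5 and 78.1 untreated, again without overlap (-0.74 ± 0.20, adjusted p 0.0673). *Plk1*, the polo kinase of mitotic entry, had 57.1, 33.6 and 62.2 FPKM treated against 82.03, 77.2 and 85.7 untreated (-0.73 ± 0.21, adjusted p 0.074). The 5 Aurora kinase and passenger genes had the lowest median of the role groups (-0.63), and the centromere and kinetochore genes, *Cenpa* apart, lay between -0.64 (*Knstrn*) and -0.08 (*Cenpf*).

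The genes above 0 were *Anln* (anillin, a scaffold of the contractile ring) and *Bub1* (a checkpoint kinase). *Anln* had 18.6, 21.7 and 20.6 FPKM untreated and 17.2, 32.2 and 19.5 treated (0.17 ± 0.27, adjusted p 0.732). *Bub1* had 39.4, 44.4 and 44.1 FPKM untreated and 29.9, 62.6 and 37.2 treated (0.02 ± 0.29, adjusted p 0.98). In both, D4H8_GSKJ4 replicate 2 was above every untreated library while replicates 1 and 3 were below the untreated mean, and without replicate 2 their log2 fold changes were -0.24 and -0.44. *Top2a* showed the same split, with 76.7, 169.8 and 98.3 FPKM treated against 127, 139 and 132 untreated, as did *Mki67*, with 40.9, 81.7 and 41.8 against 71.6, 64.5 and 64.4. *Ube2c* went the other way, with 54.8, 28.7 and 48.5 FPKM treated against 70.5, 54.97 and 56.2 untreated.

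In D4H8_GSKJ4 replicate 2 the difference from the untreated mean was correlated with gene length. Over the 40 genes its log2 CPM difference was correlated with log2 exonic length at r = 0.644, against -0.038 in replicate 1 and -0.078 in replicate 3; the points share a library, and over all 16269 genes tested the same r were 0.282, 0.203 and 0.016. In replicate 2 the 20 genes of at most the median exonic length (4926 bases) had a median of -0.53 and the 20 longer genes a median of 0.10, with 12 of the longer and 3 of the shorter genes above 0. In replicate 1 these medians were -0.59 and -0.62, and in replicate 3 they were -0.33 and -0.24. The 40 genes were thus on median lower than untreated in all 3 libraries (medians -0.60, -0.25 and -0.30), and which of them were lowest differed by library. Measured in the same way against untreated libraries of their own stage, r over the 40 genes was 0.485 in D5_GSKJ4 replicate 1 and 0.274 in D6_GSKJ4 replicate 1, and between -0.039 and 0.048 in the other 4 treated libraries of D5 and D6. The part of transcript length in these values was not tested.

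**Figure D4:**
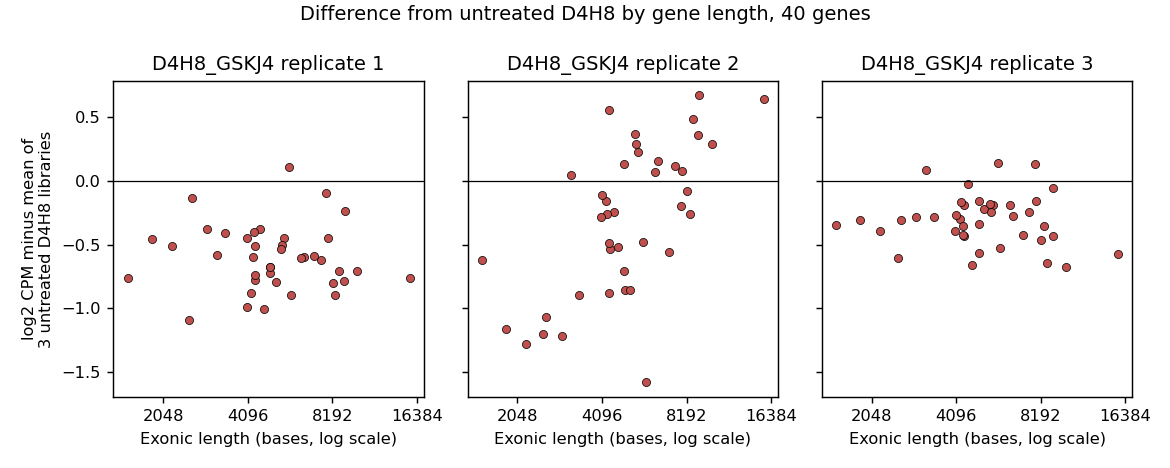
Log2 CPM of each of the 40 genes in a D4H8_GSKJ4 library minus its mean over 3 untreated D4H8 libraries (y axis), against exonic length in bases (x axis, log scale), 1 panel per treated replicate. Of these 3 panels the points slope upward in replicate 2 (r = 0.644, against -0.038 and -0.078), and lie mostly below 0 in replicates 1 and 3.

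The lists of other cell cycle genes were also read at D4H8 under GSKJ4. Of the 60 further mitosis genes 5 fell (*Kif22*, *Cdca8*, *Spag5*, *Pbk* and *Cdc25b*) and none rose, with a median of -0.24, against 1.85% lower and 2.11% higher over all genes tested. Of 35 DNA replication and G1/S genes 4 fell, among them *Pcna* and *Rrm2* (median -0.37), and of 19 MuvB, B-Myb and E2F regulators 1 fell, *E2f2*. Of 12 D cyclins, partner kinases and CDK inhibitors 2 fell, 1 rose and 9 passed in neither direction. The D cyclin genes *Ccnd1* and *Ccnd2*, which act in G1, fell by 1.87 and 2.08 on the log2 scale (adjusted p 0.00275 and 0.00275). *Cdkn1a*, which encodes the CDK inhibitor p21, stood at 13.04, 17.7 and 16.5 FPKM untreated and 62.4, 25.8 and 35.5 treated, and rose (1.34, adjusted p 0.038). Cell type markers shifted too: summed FPKM of 4 proneural genes was 189.8, 121 and 131 untreated and 26.9, 5.47 and 12.4 treated, that of 7 neural progenitor markers was 564, 383 and 379 and 227, 117 and 148, and that of the 6 pluripotency markers overlapped (55.8, 237 and 150.5 and 109.8, 197 and 246). The part of a shifted cell mixture in the lower mitotic level was not tested.

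Against untreated D4, D4H8_GSKJ4 cultures also held less of these transcripts. Of the 40, 38 were below 0, the median was -0.47, and 1 of 40 was called lower (*Aurka*, adjusted p 0.0368), against 1.02% of 16225 genes tested. In 19 of 40 genes treated D4H8 libraries lay below all D4 libraries, against 11.1% of genes tested. Leaving out D4H8_GSKJ4 replicate 2 gave 19 of 40 called, leaving out replicate 3 gave 3, and leaving out D4H8_GSKJ4 replicate 1 or any D4 library gave 0.

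At D5 no gene of the 40 was called in either direction and none had an unadjusted p under 0.05. edgeR called 1 gene higher and 0 lower among all 16309 tested (0.00613% and 0%; unadjusted p under 0.05 in 377 and 390), and DESeq2 called none of the 40. The median log2 fold change of the 40 was -0.14, with 35 below 0. With 1 library left out this median ran from -0.34 (without D5 replicate 1, 7 genes lower at an unadjusted p under 0.05) to -0.04 (without D5_GSKJ4 replicate 1, 0 such genes). It was -0.29 without D5_GSKJ4 replicate 3 (6 such genes) and -0.069 without D5 replicate 2, and no gene was called in any of these fits. *Incenp* was lowest, at 10.6, 19.8 and 16.9 FPKM untreated and 9.92, 9.46 and 16.7 treated (-0.43 ± 0.27, adjusted p 0.976). *Foxm1* was highest, at 6.30, 9.98 and 11.7 FPKM untreated and 7.91, 11.5 and 14.6 treated (0.24 ± 0.26, adjusted p 0.976). Both overlapped between arms, and in no gene of the 40 were the arms separated (5.13% of genes tested were, in the lower direction). The median SE of the 40 genes was 0.22 on the log2 scale, so shifts of the size seen at D5 lay within the error.

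At D6 the arms differed little from each other within a replicate number. None of the 40 was called or had an unadjusted p under 0.05; edgeR called 0 of 16301 genes in either direction (0%; 88 higher and 134 lower at an unadjusted p under 0.05). DESeq2 also called none of the 40. The median was 0.03, with a median SE of 0.46 on the log2 scale. *Spc25* was highest, at 2.36, 4.97 and 5.24 FPKM untreated and 1.74, 7.29 and 6.1 treated (0.25 ± 0.50), and *Foxm1* lowest, at 2.03, 3.88 and 5.18 and 1.63, 3.87 and 4.53 (-0.15 ± 0.41; adjusted p 1.00 for both). Replicate 1 was the low library in both arms of both genes. Between same-numbered libraries the median difference of the 40 genes, treated minus untreated, was -0.07, 0.12 and -0.01 on the log2 scale for replicates 1, 2 and 3. With the replicate number as a block edgeR called 209 of all genes lower (1.28%) and 0 of the 40; the largest shifts among the 40 were then -0.17 and 0.21, with a median SE of 0.10 and a lowest adjusted p of 0.506. Without replicate 1 of both arms 0 of 40 were called and the median was 0.05. With 1 library left out the median ran from -0.30 (without D6 replicate 1) to 0.36 (without D6_GSKJ4 replicate 1), with 0 of 40 called and none at an unadjusted p under 0.05.

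**Figure D5:**
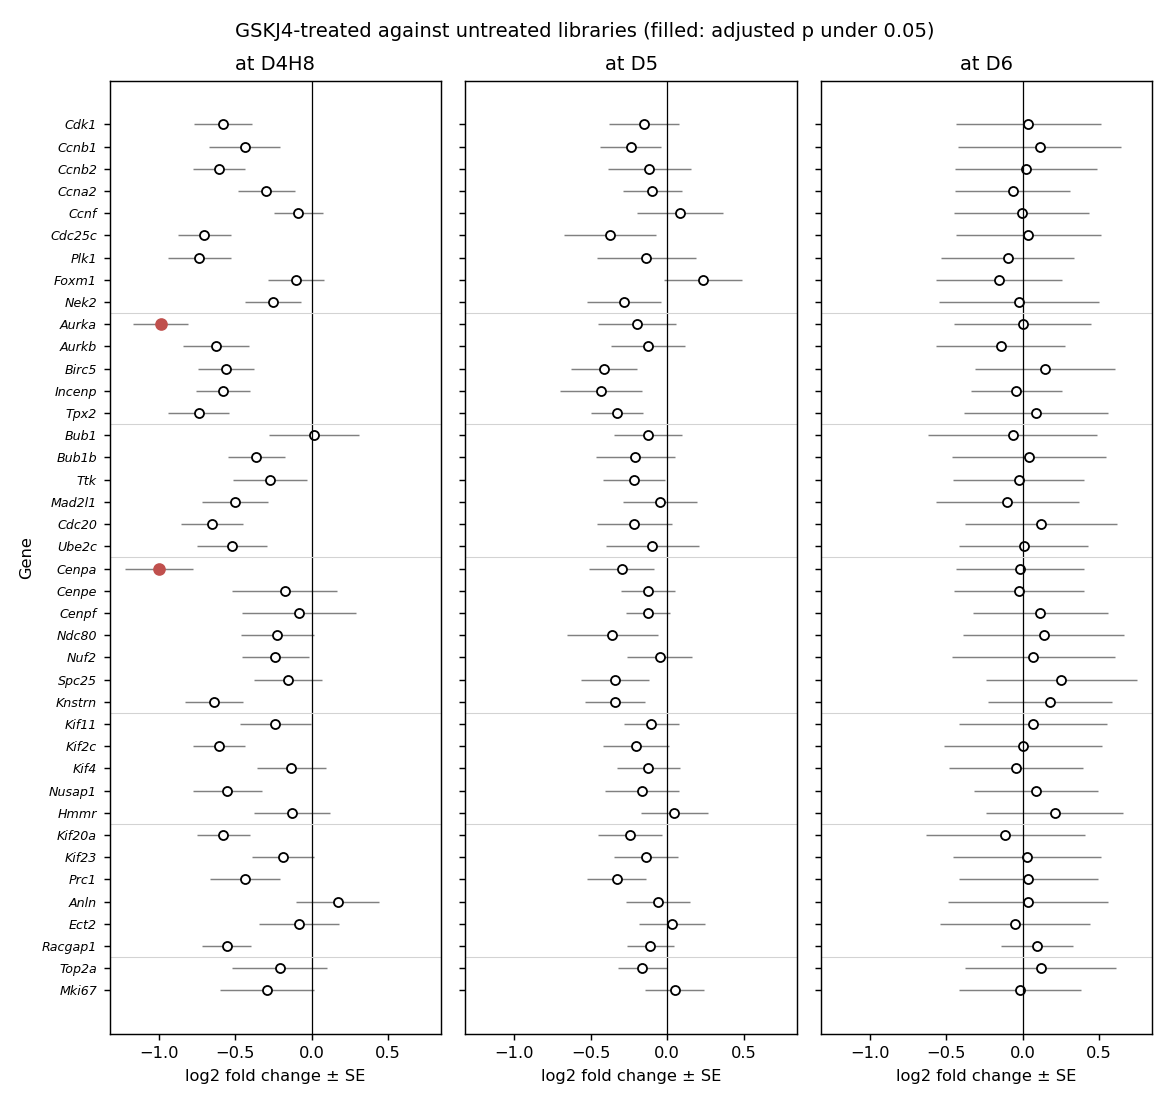
Log2 fold change of each of the 40 genes (rows) between GSKJ4-treated and untreated libraries at D4H8, D5 and D6 (panels), with bars of 1 SE from edgeR; filled points have an adjusted p under 0.05. At D4H8 38 points lie left of 0 and 2 (*Aurka* and *Cenpa*) are filled, and at D5 and D6 none is filled.

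Whether the effect of GSKJ4 changed between stages was tested as an interaction over 18 libraries. Between D5 and D4H8 0 of 40 genes passed (0.232% of 18103 genes were called higher and 0.0166% lower), with a median difference of 0.19 and 0 at an unadjusted p under 0.05. Between D6 and D4H8 0 of 40 passed (0.552% and 0.182%), with a median difference of 0.42 and 3 at an unadjusted p under 0.05, and DESeq2 called none in either. These medians moved with single libraries. With 1 left out the first ran from 0.058 (without D5 replicate 1) to 0.38 (without D4H8_GSKJ4 replicate 2). The second ran from 0.14 (without D6 replicate 1) to 0.79 (without D6_GSKJ4 replicate 1, where 15 genes had an unadjusted p under 0.05), and none of the 40 was called in any of these fits. The low levels at D4H8 under GSKJ4 and the smaller differences at D5 and D6 were thus not shown to be different effects.

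Treated cultures of later stages also held less of the mitotic transcripts. Each treated group had its own 1-day exposure before collection, so stage and the time of exposure cannot be told apart. From D4H8_GSKJ4 to D5_GSKJ4 all 40 genes were below 0, with a median of -1.0, and 5 were called lower, against 4.65% of 17217 genes tested. In 31 of 40 genes the treated D5 libraries were below all treated D4H8 ones, against 15.5% of genes tested. Leaving out D4H8_GSKJ4 replicate 1 gave 9 calls, leaving out D5_GSKJ4 replicate 1 or 2 gave 0, and leaving out any of the other 3 libraries gave 1. Among all genes, 667 were called lower in the first of these fits. Without D5_GSKJ4 replicate 1 or 2 it was 128 and 468, and in the other 3 fits 505 to 608. From D5_GSKJ4 to D6_GSKJ4 all 40 were below 0 with a median of -1.26, and 20 were called lower, against 4.70% of genes tested. Here 38 of 40 did not overlap, against 23.1% of genes tested, and 3 of 40 were called without D6_GSKJ4 replicate 1. Leaving out D5_GSKJ4 replicate 1, 2 or 3 gave 16, 8 and 1, with 715, 470 and 252 of all genes called lower. Leaving out D6_GSKJ4 replicate 2 or 3 gave 7 and 19. The D6 means under GSKJ4 spanned 11.9% (*Hmmr*) to 40.8% (*Racgap1*) of the untreated D4 mean, and without GSKJ4 10.2% (*Hmmr*) to 38.1% (*Racgap1*).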

How the data were processed

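RNA-seq of 21 mouse libraries was analysed. Per the study's methods the authors trimmed reads with Fastp, used HISAT2 for alignment to mm10 and HTSeq for counting, and deposited raw counts per gene. The strand setting is not given in the sources used here. Of 55400 gene identifiers 260 had no symbol. Deposited FPKM values came from the same counts; recomputed from the counts and the deposited exonic lengths they differed by at most 0.005. Each group had 3 libraries. The study calls them biologically independent, and p-values measure the spread between these libraries. Wilson intervals cover counting error only.

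Counts were tested with edgeR 4.0.16 (TMM scaling, filterByExpr with a minimum count of 10, quasi-likelihood test, Benjamini-Hochberg adjustment over all genes tested, threshold 0.05) in R 4.3.3. Stage steps were fitted over the 12 untreated or 9 treated libraries, each GSKJ4 effect and D4H8_GSKJ4 against D4 over the 6 libraries compared, and differences between GSKJ4 effects over 18. SEs were derived from the fold change and F statistic. Log2 CPM used a prior count of 2. The fits were run on simulated counts whose spread was set below the common estimate for the D4H8 libraries. That run does not measure how the fits perform on these data. The 40 genes, role groups and lists (60 further mitosis, 35 DNA replication and G1/S, 19 MuvB, B-Myb and E2F, 12 D cyclin and CDK inhibitor, 11 p53 target genes; markers of MNs, progenitors, proneural cells, neurons, feeder fibroblasts, pluripotent cells, interneurons and glia) were chosen with earlier results of these data known. Named by rule were the gene of highest mean FPKM in each role group, the lowest and highest fold change in D6 against D4 and in each GSKJ4 comparison, *Cdk1*, and genes against the direction of most; all other genes were named after their values were seen.

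Same-numbered replicates were checked for shared deviations from group means over 16600 genes with a mean of at least 10 counts. Every correlation exceeded 0.1 for D6 and D6_GSKJ4 (0.741, 0.399 and 0.535), D4 and D4H8, D4H8 and D5, and D5 and D6. The remaining comparisons did not meet this. No main fit held a replicate block, so the main p-values and SEs are unpaired. The block was run only as an alternative. Alternatives were DESeq2 1.42.0, other scalings and filters, the replicate block, other sample sets, and each library left out. Promoter windows were 300 bases from RefSeq (GRCm38.p6).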

Additional observations from a re-analysis of the deposited data

How the results depend on the processing

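All 40 genes kept their fall at both untreated steps and from D4 to D6 with DESeq2, with both other scalings (RLE, upper-quartile), with or without a filter, with the replicate block and in the 6 libraries alone. With a library left out 34 to 40 were called from D4H8 to D5, 38 to 40 from D5 to D6 and 40 from D4 to D6. With upper-quartile scaling the median of all genes from D4 to D6 shifted to -0.19, and that of the 40 was -2.83, a change of the 40 beyond that shift. Called genes changed mainly under GSKJ4. Calls over all genes changed there too. Genes called lower at D4H8 numbered 301 in the main fit, 838 with DESeq2 and 1058 without a filter. From D4H8_GSKJ4 to D5_GSKJ4 they numbered 801, 1522 (DESeq2), 893 (RLE scaling), 1352 (no filter) and 2279 (21 libraries). From D5_GSKJ4 to D6_GSKJ4 they numbered 810, 1274 (DESeq2), 1359 (no filter) and 2196 (21 libraries). At D4H8 2 genes were called lower, against 10 with DESeq2, 7 without a filter and 0 to 20 with a library left out (medians -0.52 to -0.23). From D4H8_GSKJ4 to D5_GSKJ4 5 became 23 with DESeq2, 8 with RLE scaling, 34 without a filter, 9 with 10 counts in every library, 24 in 1 fit over 21 libraries and 0 to 9 with a library left out. From D5_GSKJ4 to D6_GSKJ4 20 became 37 (DESeq2), 39 (no filter), 38 (21 libraries), 1 to 19 (a library left out) and 3 without replicate 1 of both arms. For D4H8_GSKJ4 against D4 1 became 10 (DESeq2), 7 (no filter) and 0 to 19 (a library left out; medians -0.70 to -0.37). The D6 minus D4H8 difference called 2 genes higher without a filter. The median from D4 to D4H8 lay between -0.092 and -0.014 with a library left out. The cause of these shifts was not tested.

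The replicate block raised the calls to 7 at D4H8 under GSKJ4, 19 and 36 at the treated steps and 4 for D4H8_GSKJ4 against D4. Calls in the lower direction over all genes also rose, from 301 to 1039 of 16269 at D4H8. At the treated steps they rose from 801 to 1008 and from 810 to 1052 of 17217. In these comparisons not every correlation between same-numbered libraries exceeded 0.1. For D4H8 and D4H8_GSKJ4 they were 0.464, 0.0907 and 0.293 in replicates 1, 2 and 3, so part of the deviation was shared there. In the comparisons where every correlation exceeded 0.1 the block changed no call among the 40. *Bub1* at D4H8 under GSKJ4 reversed to -0.013 without a filter and -0.087 with the block. With a library left out, D4H8 values ranged from -0.44 to 0.24 for *Bub1*, -0.24 to 0.36 for *Anln*, -0.70 to 0.027 for *Top2a*, -0.47 to 0.047 for *Hmmr*, -0.17 to 0.026 for *Foxm1* and -0.31 to 0.044 for *Spc25*. In the 150 bases before the start TTTGAA stood in 31.4%, TTCGAA in 2.86% and CCAAT with either in 28.6% of windows. CPM in place of FPKM for the order of stage means, and a prior count of 0.5 for the mean log2 CPM of the 40 genes, D6 minus D4, changed neither result. With 3 libraries a group, median SEs of 0.21 to 0.50 limited the tests of GSKJ4 effects and of their differences.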

Other observations

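Genes of the p53 response moved beside the mitotic genes at D4H8 under GSKJ4. Of 11 p53 target genes 6 rose (*Cdkn1a*, *Mdm2*, *Ccng1*, *Trp53inp1*, *Sesn2* and *Eda2r*) and none fell, against 2.11% of all genes tested called higher, with a median log2 fold change of 1.01. *Mdm2*, the ubiquitin ligase that restrains p53, stood at 20.6, 21.3 and 25.1 FPKM untreated and 51.97, 46.2 and 39.4 treated (1.01, adjusted p 0.0262 by edgeR). At D5 and D6 none of the 11 was called, and their medians were 0.31 and 0.19. Summed FPKM of the 11 was 285, 339 and 334 in untreated and 776, 563 and 587 in treated D4H8 libraries. This count was not recomputed with libraries left out, and the relation to the mitotic genes was not tested.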
